A study of Mus musculus with 31 samples.

Results

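The interferon regulatory factor (IRF) genes were followed through 12 RNA-seq libraries of sorted mouse astrocytes. The 7 members, Irf1, Irf2, Irf3, Irf5, Irf7, Irf8 and Irf9, were taken by gene symbol from 55401 genes in the deposited tables, and all 7 passed the filter on low counts. The libraries came from C57Bl/6 females labelled as 10 weeks old, and every library title begins with SPF. Per the treatment protocol, IL-1β at 100 ng/mL with TNF-α at 50 ng/mL, or PBS alone, was injected into the lateral ventricles of the brain, and astrocytes were sorted 18 to 24 hours after the injection of day 7. The 4 groups of 3 libraries were 2X cytokine and 2X PBS, in which day 7 brought a repeat injection, and 1X cytokine and 1X PBS, in which it brought the only one. The short description of the cytokine libraries names TNF-α alone. No source used here names the sort markers, and the labels do not say whether a library is 1 animal. The p-values below therefore describe spread among libraries, and that spread may be technical.

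IRF proteins are transcription factors that share a DNA-binding domain and recognise repeats of the bases GAAA in promoters of interferons and interferon-stimulated genes. IRF3, IRF5 and IRF7 lie in the cytoplasm until kinases downstream of pattern-recognition receptors phosphorylate them. IRF9 joins STAT2 in the complex called ISGF3, which carries the type I interferon signal to the nucleus. IRF1 is made on demand, since its gene is transcribed in response to interferon-γ, TNF and IL-1, and it turns on genes of antigen presentation. IRF2 binds the same sites and often opposes IRF1, and IRF8 acts with the factor PU.1 in myeloid cells, microglia included.

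Total estimated counts ran from 1878418 to 5521679 per library, and 3 counts, the upper limit that a count of 0 allows, equal 0.543 to 1.60 CPM, the count divided by the scaled library total and given on a common scale. Several libraries stood apart or went against their labels. Lcn2, an acute-phase gene of reactive astrocytes that IL-1β and TNF-α are known to induce, had 15.0, 2.26 and 1.2 CPM under the label 2X cytokine, against 570.1, 363 and 426 CPM under the label 2X PBS. It had 797, 11.5 and 3.85 CPM in replicates 1, 2 and 3 labelled 1X cytokine and 5.33, 1076 and 776 CPM in those labelled 1X PBS. Thus 5 of 6 cytokine libraries were lower in Lcn2 than 5 of 6 PBS libraries, and replicate 1 of each 1X group had the level of the opposite label. Gfap, an astrocyte filament gene that rises in reactive astrocytes, also averaged lower under the label 2X cytokine. Whether the names cytokine and PBS were exchanged in the deposited labels was not tested; all directions follow the labels, and each direction between cytokine and PBS given here would turn if they were. Results on the 1X groups are given with and without the pair of replicate 1 libraries. All 12 astrocyte markers were counted in every library, and their summed level was 22700 to 26710 CPM in 2X cytokine, 21170 to 23470 in 2X PBS, 11630 to 25660 in 1X cytokine and 8095 to 29500 in 1X PBS. Markers of red blood cells were present as well, with summed levels between 513.7 CPM in a 2X PBS library and 64890 CPM in a 1X PBS library.

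Levels can be compared between genes only per unit of transcript length, as TPM, which divides each count by transcript length before scaling. Irf1 and Irf3 were the most abundant members, at means over the 12 libraries of 99.5 ± 33.0 and 96.4 ± 18.1 TPM (SD). Irf2 and Irf9 followed at 26.5 ± 9.71 and 23.5 ± 5.92 TPM, then Irf7 at 13.8 ± 4.53, Irf5 at 9.36 ± 5.01 and Irf8 at 6.77 ± 2.90 TPM. The clear step lay between Irf3 and Irf2, whose ranges did not meet. Other neighbours in this order had overlapping ranges: Irf1 exceeded Irf3 in 7 of 12 libraries, Irf2 exceeded Irf9 in 8, Irf9 exceeded Irf7 in 12, Irf7 exceeded Irf5 in 11 and Irf5 exceeded Irf8 in 8. Irf3 was the steadiest member, with a highest CPM 1.34 times its lowest, against 1.67 for Irf2, 1.93 for Irf9, 2.44 for Irf1, 4.0 for Irf7, 5.90 for Irf8 and 7.32 for Irf5. The counts behind these values were 181 to 587 per library for Irf1 but 17 to 119 for Irf7, 14 to 125 for Irf5 and 13 to 100 for Irf8.

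**Figure D1:**
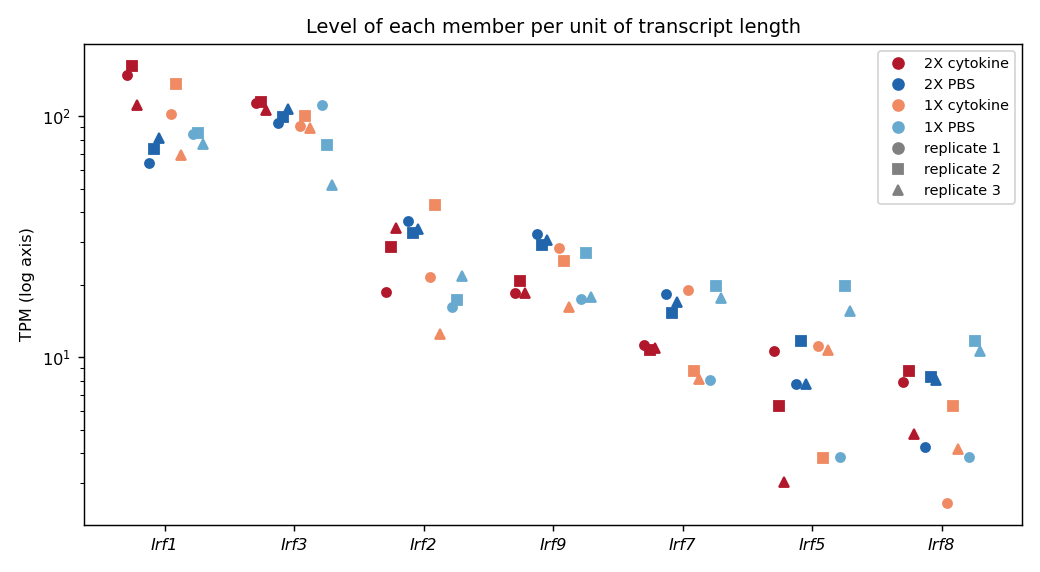
TPM on a log axis of the 7 members in each of the 12 libraries, coloured by group and with a marker shape per replicate. Irf1 and Irf3 stand above the others in every library, with means of 99.5 and 96.4 TPM, and Irf8 has the lowest mean at 6.77 TPM.

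The transcripts that received these counts differed between members. Irf1-202, a coding transcript, took 98.0% of the Irf1 counts and Irf5-201 took 98.4% of the Irf5 counts. In contrast, transcripts annotated as retained intron, which keep an intron and are not listed as coding, took 59.5% of Irf3 and 56.3% of Irf7 counts. The share in single libraries was 45.9% to 76.5% for Irf3 and 14.4% to 99.98% for Irf7. It was 20.5% for Irf2, 7.61% for Irf9 and 3.68% for Irf8. Whole-gene values of Irf3 and Irf7 therefore include counts from both kinds of transcript, which kallisto divides by a model. No source used here says whether strand was used. By gene span, introns included, Irf3 shares 1065 bases with Bcl2l12, Irf5 1045 bases with Tnpo3 and Irf7 45 bases with Phrf1. These overlaps are on the opposite strand. Division of reads between genes would leave fractions in the total of a gene. To rounding, the totals of Irf3, Irf5 and Irf7 were whole counts, apart from 1X cytokine replicate 1. That library had 212.53 for Irf3 and 65.24 for Irf5. On the same strand, the span of Irf8 lies wholly within that of Galnt2l, over 20337 bases, and Irf9 shares 123 bases with Rnf31. Gene totals of Irf8 were whole counts in every library. Those of Irf9 held fractions, such as 50.56 in 1X cytokine replicate 3. Over the 12 libraries Galnt2l had 1754 estimated counts and Irf8 478.

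Promoter sequence is shown for Irf1, Irf2 and Irf8, the members whose 250 bases before the RefSeq start (assembly GRCm38.p6) held a match to 1 of 3 motifs searched on both strands. These were the STAT motif TTCNNNGAA, a tandem IRF motif GAAANNGAAA and the NF-kB motif, at which the factor activated by TNF and IL-1 binds. The first window of each is printed 5′ to 3′ on the plus strand, with matches in capitals.

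Irf1, chr11:53769764-53770013: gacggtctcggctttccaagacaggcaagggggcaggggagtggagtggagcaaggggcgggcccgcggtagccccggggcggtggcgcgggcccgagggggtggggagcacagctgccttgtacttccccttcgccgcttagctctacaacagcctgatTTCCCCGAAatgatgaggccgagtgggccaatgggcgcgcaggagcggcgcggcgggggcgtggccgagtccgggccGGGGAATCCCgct

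Irf2, chr8:46739495-46739744: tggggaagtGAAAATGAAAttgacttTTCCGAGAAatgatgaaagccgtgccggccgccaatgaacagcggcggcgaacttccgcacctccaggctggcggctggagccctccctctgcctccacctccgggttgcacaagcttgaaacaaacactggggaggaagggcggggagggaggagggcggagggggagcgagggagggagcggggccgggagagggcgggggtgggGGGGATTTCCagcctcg

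Irf8, chr8:120736108-120736357: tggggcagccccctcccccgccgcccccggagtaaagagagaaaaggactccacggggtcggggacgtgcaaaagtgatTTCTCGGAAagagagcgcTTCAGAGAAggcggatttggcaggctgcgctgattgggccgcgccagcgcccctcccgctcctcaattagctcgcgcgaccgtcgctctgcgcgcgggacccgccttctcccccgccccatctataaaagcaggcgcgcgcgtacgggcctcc

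The Irf1 window has a STAT match at 90 to 82 bases and an NF-kB match at 13 to 4 bases before the start. The Irf2 window has an IRF tandem match at 241 to 232, a STAT match at 224 to 216 and an NF-kB match at 17 to 8 bases before it. The Irf8 window has 2 STAT matches, at 171 to 163 and 153 to 145. Over 32851 windows of this length, 7.02% held the STAT motif, 3.90% the NF-kB motif and 2.98% the IRF tandem. A match is a description of letters. The windows of Irf3, Irf5, Irf7 and Irf9, and the second windows of Irf1 and Irf8, held none of these letters.

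Repeated injection was examined by setting 2X cytokine against 2X PBS. Irf1 was the single member with a higher mean in 2X cytokine and the other 6 had lower means. For Irf1, Irf9, Irf7 and Irf5 no library of one group reached the range of the other, as held for 25.3% of all 14490 genes tested. The edgeR quasi-likelihood fit of all 12 libraries was read at an adjusted p of 0.05 (Benjamini-Hochberg over all genes). In it 0 of 7 members passed, where 0.0345% of genes did. An unadjusted p under 0.05 was found for 3 of the 7 members and for 1402 of the 14490 genes. In the fit of the 6 libraries of this comparison, Irf1, Irf9 and Irf7 passed, where 7.74% of genes did. With replicate 1 of both 1X groups left out of the larger fit, Irf5 passed too, giving 4 of 7 against 7.02% of genes. Leaving out those 2 libraries, or the 1X libraries as a whole, leaves the 2X counts as they are. It changes the estimate of spread, and also the filter, the scaling and the adjustment over genes. The genes tested were 14848 without those 2 libraries and 13765 without the 1X libraries.

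Irf1 (chr11:53770014-53778374, plus strand), the cytokine-induced activator whose promoter is printed above, had 193, 215 and 148 CPM in 2X cytokine and 88.0, 99.6 and 114 CPM in 2X PBS. Every 2X cytokine library lay above every 2X PBS library. The means were 186 ± 34.1 CPM in 2X cytokine and 101 ± 13 CPM in 2X PBS (n = 3 each, SD), a 1.84-fold difference. With 12 libraries the log2 fold change was 0.88 (standard error 0.21, edgeR adjusted p = 0.255). With 6 it was 0.89 (standard error 0.14, edgeR adjusted p = 0.00175), and DESeq2 on all 12 gave 0.89 with an adjusted p of 0.0247.

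Irf9 (chr14:55603571-55610030, plus strand), the DNA-binding subunit of ISGF3, had 28.6, 31.3 and 28.8 CPM in 2X cytokine and 54.2, 45.1 and 49.4 CPM in 2X PBS. The 2X cytokine libraries lay close together and all below the 2X PBS libraries. Mean CPM was 29.5 ± 1.5 in 2X cytokine and 49.6 ± 4.56 in 2X PBS (n = 3 each, SD). The log2 fold change was -0.74 with 12 libraries (standard error 0.20, edgeR adjusted p = 0.314) and -0.72 with 6 (standard error 0.12, edgeR adjusted p = 0.00331).

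Irf7 (chr7:141262706-141266481, minus strand), the amplifier of type I interferon production, had 9.64, 10.5 and 6.90 CPM in 2X cytokine and 20.7, 15.0 and 15.7 CPM in 2X PBS. Irf5 (chr6:29526625-29541871, plus strand), which works downstream of Toll-like receptors and is strong in myeloid cells, had 6.07, 8.67 and 4.20 CPM in 2X cytokine and 11, 16.5 and 11.3 CPM in 2X PBS. In CPM all 3 libraries of 2X cytokine were lower than any of 2X PBS for both genes. In TPM this held for Irf7 but not for Irf5, which had 10.7, 6.30 and 3.05 TPM in 2X cytokine and 7.78, 11.7 and 7.79 TPM in 2X PBS. The 10.7 TPM of 2X cytokine replicate 1 rests on 17 Irf5 counts. Of these, 11.8% were assigned to Irf5-204, which has 402 bases, against 2189 for Irf5-201. The other libraries of this comparison gave at least 99.999% of their Irf5 counts to Irf5-201. The log2 fold change of Irf7 was -0.92 with a standard error of 0.39 (edgeR adjusted p 0.496 in the fit of 12, 0.0364 in the fit of 6). That of Irf5 was -1.07 with a standard error of 0.57 (edgeR adjusted p 0.613 in the fit of 12, 0.0507 in the fit of 6). Irf5 thus stayed outside the threshold in the fit of its own 6 libraries. On log2(TPM + 1), limma-trend gave -0.50 for Irf5 with a standard error of 0.58 (adjusted p 0.90).

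The other members overlapped between these groups. Irf8 (chr8:120736358-120756694, plus strand), the myeloid lineage factor, had 10.7, 11.3 and 6.30 CPM in 2X cytokine and 8.04, 14.3 and 12.1 CPM in 2X PBS. Its log2 fold change was -0.32 with a standard error of 0.46, and its mean TPM was the other way round, at 7.16 ± 2.11 in 2X cytokine and 6.88 ± 2.28 in 2X PBS (n = 3 each, SD). Irf2 (chr8:46739732-46847458, plus strand), the antagonist of IRF1, had 17.9, 22.6 and 17.1 CPM in 2X cytokine and 19.0, 24.1 and 22.5 CPM in 2X PBS. Irf3 (chr7:44997648-45002848, plus strand), which is present before stimulation and is switched on by phosphorylation, had 57.1, 62.2 and 58.5 CPM in 2X cytokine and 62.6, 60.6 and 64.5 CPM in 2X PBS. The Irf2 difference was -0.20 with a standard error of 0.20 and the Irf3 difference -0.08 with 0.12 on the log2 scale. On the TPM scale the Irf3 mean was higher in 2X cytokine, at 112 ± 4.59 against 100.1 ± 6.86 TPM in 2X PBS. The median log2 fold change of the 7 members was -0.32, beside -0.0034 over all genes tested.

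**Figure D2:**
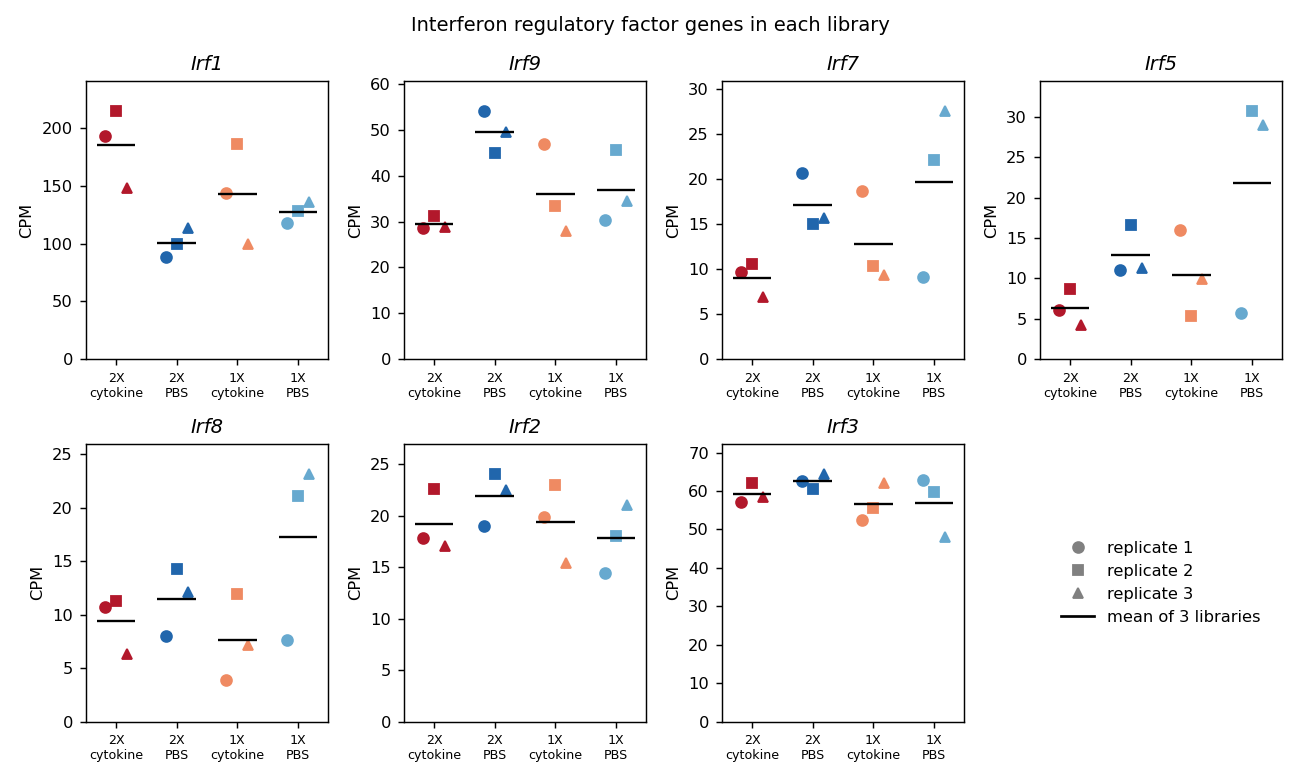
CPM of each member in each library by group, with a marker shape per replicate number and a line at the mean of 3 libraries; the axes start at 0. The groups 2X cytokine and 2X PBS do not overlap for Irf1, Irf9, Irf7 and Irf5, and replicate 1 of 1X PBS lies far below the other 1X PBS libraries for Irf5, Irf7 and Irf8.

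Genes around the family were followed in lists, which were chosen with earlier results of these data known. Their counts stand beside the shares over all genes for 2X cytokine against 2X PBS in either direction: 0.0345% passed in the fit of 12 libraries, 7.74% passed in the fit of 6, and 25.3% had no overlap between the groups. The 10 listed genes of type I, II and III interferons were near absence: 0 of 10 passed the filter, 6 had no count in any library, and none exceeded 3 counts in a library. Interferon genes outside this list were not looked up. Of 10 receptor, Janus kinase and STAT genes, 9 averaged lower in 2X cytokine; 0 passed in the fit of 12 libraries and 2 passed in the fit of 6, both lower. Those were Stat3, the factor downstream of gp130 cytokines, at 147 ± 10.1 CPM in 2X cytokine and 287 ± 9.52 CPM in 2X PBS, and Ifngr1, a subunit of the interferon-γ receptor, at 72.9 ± 0.50 CPM in 2X cytokine and 98.6 ± 6.09 CPM in 2X PBS (n = 3 each, SD). Stat2, whose product joins IRF9, had 23.7 ± 6.00 CPM in 2X cytokine and 31.5 ± 3.63 CPM in 2X PBS, with overlap, and passed in neither fit.

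Of 13 measured genes of the pathway that activates IRF3, IRF5 and IRF7, 9 averaged lower in 2X cytokine, with 0 passing in the fit of 12 and 2 in the fit of 6, both lower. Irak4, a kinase of Toll-like receptor signalling, had 9.70 ± 1.28 CPM in 2X cytokine and 17.6 ± 1.1 in 2X PBS. Sting1, the adaptor of cytosolic DNA sensing, had 7.28 ± 2.95 CPM in 2X cytokine and 19.0 ± 1.92 CPM in 2X PBS. The RNA sensors Ddx58 and Ifih1 had non-overlapping lower values but missed the threshold with 6 libraries (edgeR adjusted p = 0.0608 and 0.0821). Of the 6 genes of this list without overlap, 5 were lower and 1 was higher. The higher one was Traf6, a ubiquitin ligase of Toll-like and IL-1 receptor signalling, at 36.8, 34.7 and 32.1 CPM in 2X cytokine and 29.2, 28.5 and 29.6 CPM in 2X PBS, and it missed the threshold with 6 libraries too (edgeR adjusted p = 0.279). The kinase gene Tbk1, which phosphorylates IRF3, had 31.2 ± 3.93 CPM in 2X cytokine and 31.6 ± 4.82 CPM in 2X PBS.

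Targets of ISGF3 and of IRF1 had lower values in 2X cytokine for the most part. Of 16 measured genes typical of ISGF3, 15 averaged lower, with a median log2 fold change of -0.77. In the fit of 12 none passed, and in the fit of 6 libraries 5 of 14 tested did, all lower. They included Ifitm3, a membrane restriction factor, at 128 ± 15.9 CPM in 2X cytokine and 406 ± 43.4 CPM in 2X PBS. Rtp4, another interferon-induced gene, had 6.15 ± 1.44 CPM in 2X cytokine and 16.8 ± 1.85 CPM in 2X PBS. Oasl2, an oligoadenylate synthetase-like gene, had 16.4 ± 2.30 CPM in 2X cytokine and 38.0 ± 5.22 CPM in 2X PBS. The exception in direction was Rsad2, an antiviral enzyme gene, at 16.1 ± 7.29 CPM in 2X cytokine and 15.2 ± 4.99 CPM in 2X PBS.

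Of 15 measured genes typical of IRF1, 14 averaged lower in 2X cytokine, the opposite side to Irf1 itself, with a median log2 fold change of -0.84, and 10 had no overlap between the groups, where 25.3% of all genes had none. Psmb10, an immunoproteasome subunit, passed in the fit of 12 libraries, at 18.5 ± 2.47 CPM in 2X cytokine and 41.9 ± 3.94 in 2X PBS (edgeR adjusted p 0.0278). In the fit of 6 libraries 9 of 14 tested passed, all lower, where 7.74% of all genes passed. Among them were Tap1 and Tap2, which carry peptides to class I molecules, at 21.2 ± 2.75 and 75.2 ± 3.79 CPM in 2X cytokine, against 37.1 ± 5.84 and 108 ± 13.5 CPM in 2X PBS. Nlrc5, the class I transactivator, had 2.24 ± 0.42 CPM in 2X cytokine and 5.18 ± 2.69 in 2X PBS, with overlap. Socs1, the feedback inhibitor of Janus kinases, was the gene with a higher mean, at 8.48 ± 2.69 CPM in 2X cytokine and 5.82 ± 0.45 in 2X PBS, with overlap. Spi1, which encodes the IRF8 partner PU.1, had 1.07, 0.75 and 0.60 CPM in 2X cytokine and 11.4, 7.75 and 8.59 CPM in 2X PBS. It was the 1 of 5 partner genes tested to pass in the fit of 6 libraries, and the 2X cytokine values lay at or near the limit of detection.

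**Figure D3:**
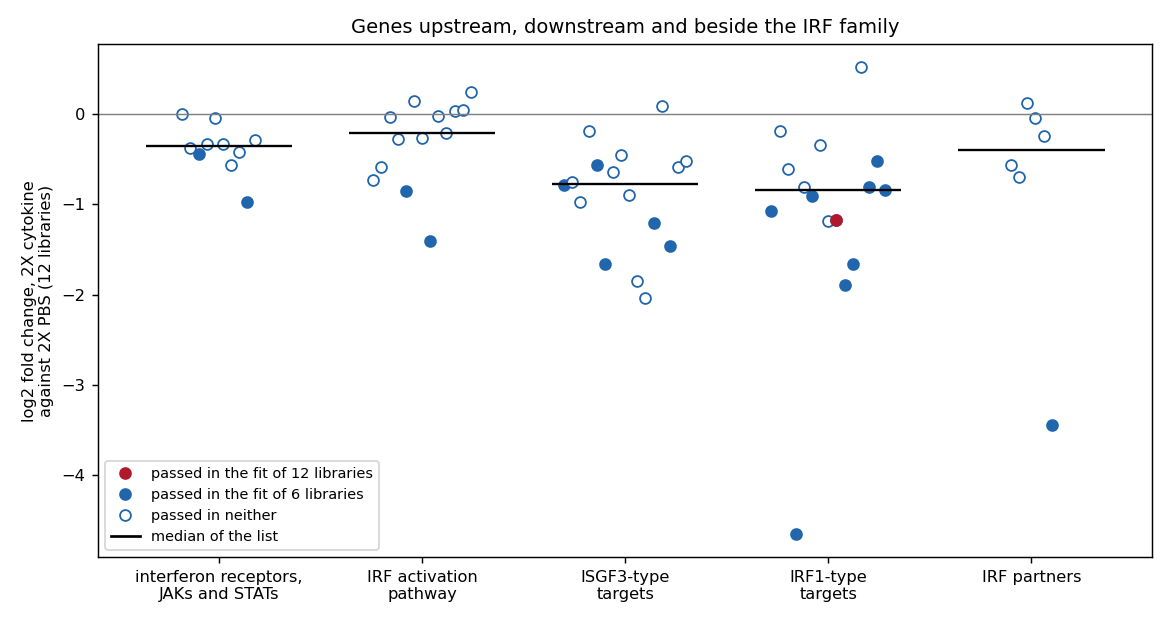
Log2 fold change of 2X cytokine against 2X PBS in the fit of 12 libraries for each measured gene of 5 lists, with a line at the median of the list; filled blue points passed in the fit of 6 libraries and the red point, Psmb10, in both fits. Most points of the ISGF3 and IRF1 lists lie below 0, with medians of -0.77 and -0.84.

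Markers of other cells moved with several members, and in bulk libraries fewer cells of a type and less RNA per cell cannot be told apart. The 20 microglia markers summed to 575.1 to 1136 CPM in 2X cytokine and 1272 to 1712 CPM in 2X PBS, and 17 of 20 averaged lower in 2X cytokine. Of the defining microglia markers, Tmem119 had 39.0 ± 11 CPM in 2X cytokine and 58.0 ± 5.82 in 2X PBS, while P2ry12 had 30.4 ± 8.05 CPM in 2X cytokine and 19.6 ± 4.83 CPM in 2X PBS. The 10 measured monocyte and macrophage markers summed to 111 to 212 CPM in 2X cytokine and 655 to 682 CPM in 2X PBS, and all 10 averaged lower in 2X cytokine. Of the neutrophil markers 6 of 8 had a lower mean, and their sums were 12.9 to 140 CPM in 2X cytokine and 287 to 392 CPM in 2X PBS. No gene of these 3 lists was at 0 in all 12 libraries; the monocyte markers Ccr2, Ly6c2, Ms4a6c, Ms4a7, Pf4 and Plac8 and 7 of 10 neutrophil markers were at 0 in at least 1. In the fit of 6 libraries 10 of 20 microglia, 7 of 9 monocyte and 5 of 7 neutrophil markers tested passed, all lower. In that fit 7.74% of all genes passed in either direction. The part of other cells in the values of Irf5, Irf7, Irf8 and Irf9 was not tested. Their part in the values of the listed receptor, activation, target and partner genes was not tested either. In contrast 11 of 12 oligodendrocyte markers averaged higher in 2X cytokine, at sums of 5896 to 7071 CPM against 3125 to 4549 CPM in 2X PBS. Of these 12 markers 8 passed in the fit of 6 libraries, all higher.

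**Figure D4:**
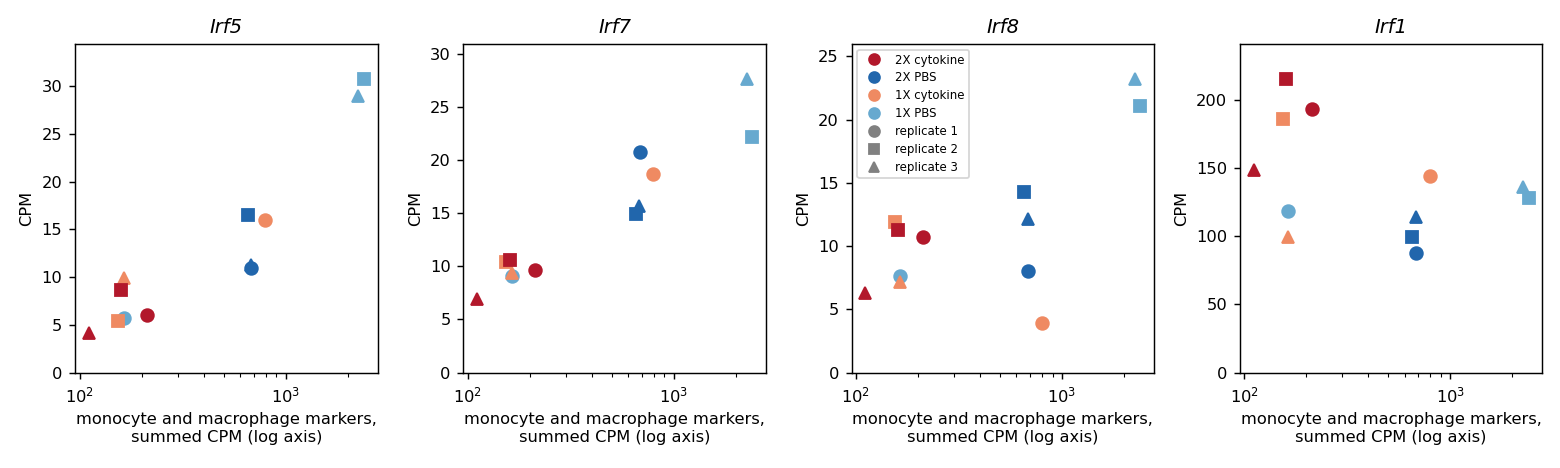
CPM of Irf5, Irf7, Irf8 and Irf1 in each library against the summed CPM of 10 monocyte and macrophage markers on a log axis, coloured by group. The 6 libraries with marker sums of 654.5 CPM or more have the 6 highest Irf5 and Irf7 values. The same 6 have the highest values of Irf9, which is not drawn, with a narrow step from 34.6 to 33.4 CPM. Irf8 is lowest in 1X cytokine replicate 1, at 3.93 CPM beside a marker sum of 796 CPM, and Irf1 follows no such order.

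A single injection was examined by setting 1X cytokine against 1X PBS. No member passed in the fit of 12 libraries, where 0% of genes did, nor in the fit of these 6, where 0% did too, and the groups overlapped for all 7, against 6.18% of genes without overlap. In the fit of 12 libraries Irf8 alone had an unadjusted p under 0.05, at 0.022, where 783 of 14490 genes did. With replicate 1 of both groups left out, Irf5, Irf7 and Irf8 passed, all lower in 1X cytokine, where 23.5% of genes passed. This choice of libraries was made with their values known.

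Irf5 had 16.0, 5.38 and 9.89 CPM in 1X cytokine and 5.71, 30.8 and 29.0 CPM in 1X PBS, replicates 1 to 3 in each. Irf7 had 18.7, 10.4 and 9.34 CPM in 1X cytokine and 9.13, 22.2 and 27.6 CPM in 1X PBS. For both genes, replicate 1 of 1X PBS had the level of the other label, as it had for Lcn2. Replicate 1 of 1X cytokine lay, for both genes, between the rest of its own group and the other 1X PBS libraries. The log2 fold change of Irf5 was -1.05 with a standard error of 0.53 with all libraries and -2.0 with 0.33 without the pair (edgeR adjusted p 0.866 and 0.000614). For Irf7 it was -0.59 with a standard error of 0.37 with all libraries and -1.31 with 0.26 without the pair (edgeR adjusted p 0.866 and 0.00237).

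Irf8 differed in this pattern. It had 3.93, 11.9 and 7.14 CPM in 1X cytokine and 7.61, 21.1 and 23.2 CPM in 1X PBS, so that replicate 1 was the lowest library of both groups. Its log2 fold change was -1.23 with a standard error of 0.47 with all libraries and -1.15 with 0.33 without the pair (edgeR adjusted p 0.866 and 0.021). Leaving out 1X PBS replicate 1 alone also brought Irf5 and Irf8 past the threshold, at edgeR adjusted p-values of 0.0335 and 0.0333. In that fit 1141 of 15106 genes passed. Irf9 had 46.9, 33.4 and 28.0 CPM in 1X cytokine and 30.4, 45.7 and 34.6 CPM in 1X PBS, and the difference was -0.01 with all libraries and -0.34 without the pair, with standard errors of 0.20 and 0.18 (edgeR adjusted p = 0.996 and 0.182).

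Irf1 had 144, 186 and 99.5 CPM in 1X cytokine and 118, 128 and 136 CPM in 1X PBS. The 3 libraries of 1X cytokine enclosed those of 1X PBS, and the log2 difference was 0.17 with a standard error of 0.21 (edgeR adjusted p = 0.914). Irf2 ran from 15.4 to 23.0 CPM in 1X cytokine and 14.5 to 21.1 CPM in 1X PBS, and Irf3 from 52.4 to 62.1 CPM in 1X cytokine and 48.0 to 62.8 CPM in 1X PBS. Neither passed with or without the pair.

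**Figure D5:**
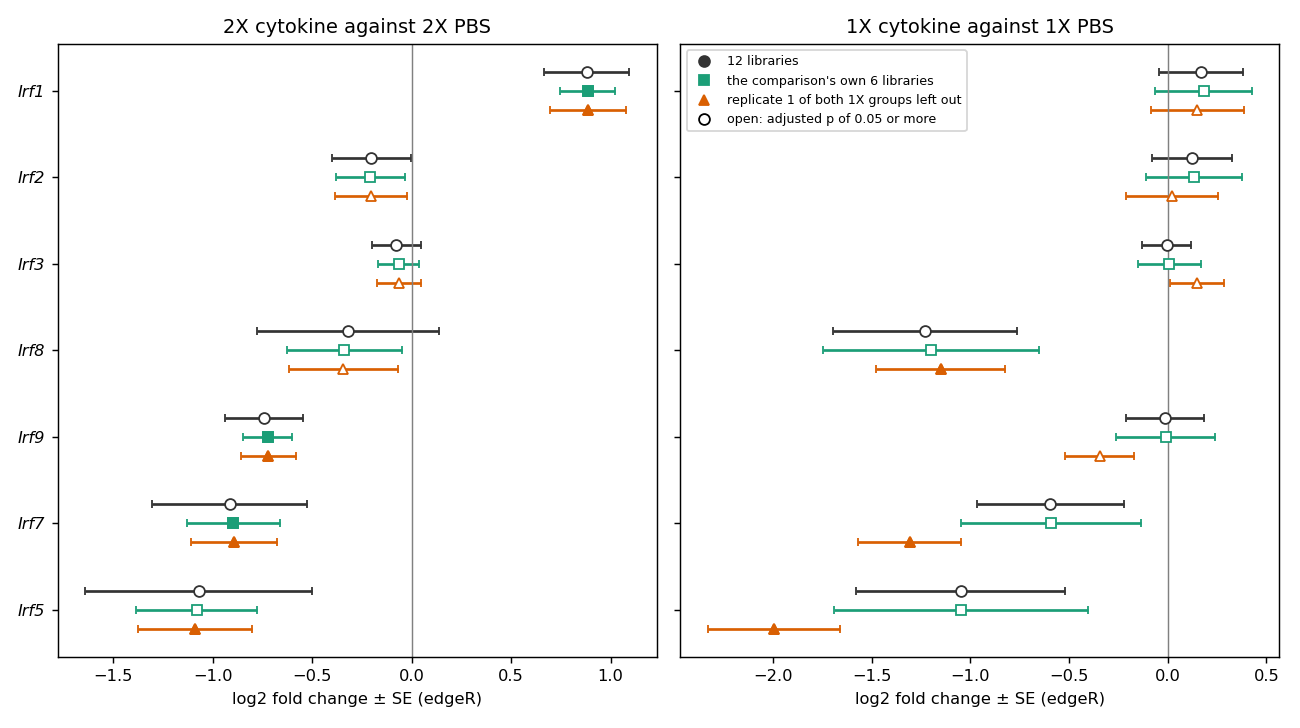
Log2 fold change with its standard error for each member in 3 edgeR fits, for 2X cytokine against 2X PBS on the left and 1X cytokine against 1X PBS on the right; filled markers have an adjusted p under 0.05. On the left the 3 fits give like values with different errors, and on the right Irf5 and Irf7 move to -2.0 and -1.31 once replicate 1 of both 1X groups is left out.

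Without the pair of replicate 1 libraries, the neighbouring lists also had lower values in 1X cytokine. In that fit 7 of 18 ISGF3 targets, 8 of 15 IRF1 targets and 5 of 10 receptor, Janus kinase and STAT genes passed, all lower, and 5 lower and 2 higher of 13 activation genes, where 23.5% of all genes passed in either direction. With all libraries none of these genes passed. Spi1 had 3.20, 3.46 and 2.20 CPM in 1X cytokine and 0, 26.0 and 16.5 CPM in 1X PBS. Monocyte and macrophage markers summed to 796, 154 and 164 CPM in 1X cytokine and 164, 2403 and 2256 CPM in 1X PBS, replicates 1 to 3 in each. Neutrophil markers summed to 549, 20.4 and 23.6 CPM in 1X cytokine and 27.8, 1172 and 1385 CPM in 1X PBS. Microglia markers summed to 994, 1073 and 1346 CPM in 1X cytokine and 876, 2433 and 2666 CPM in 1X PBS. Astrocyte markers summed to 11630, 22810 and 25660 CPM in 1X cytokine and 29500, 8537 and 8095 CPM in 1X PBS. The 3 libraries richest in monocyte and neutrophil markers were thus the 3 poorest in astrocyte markers and the 3 with the most Irf5 among these 6, and the 2 richest in microglia markers were the 2 with the most Irf8. Without the pair, 11 of 12 astrocyte markers passed as higher and 1 as lower in 1X cytokine, while 10 of 11 monocyte and macrophage, 7 of 8 neutrophil and 10 of 20 microglia markers passed as lower and 1 microglia marker as higher. Their part in these differences was not tested.

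A second cytokine injection was set against a first one. No member passed in 2X cytokine against 1X cytokine, where 0.0276% of genes did in the fit of 12 libraries and 0% in the fit of 6, and all 7 overlapped, against 12.5% of genes without overlap. Mean CPM of Irf1 was 186 ± 34.1 in 2X cytokine and 143 ± 43.4 in 1X cytokine, and that of Irf5 was 6.31 ± 2.24 in 2X cytokine and 10.4 ± 5.32 in 1X cytokine (n = 3 each, SD). In the fit of 12 libraries no member had an unadjusted p under 0.05, where 1015 of 14490 genes did. Without the pair of replicate 1 libraries 0 of 7 passed, where 0.0202% of genes did. The log2 difference in that fit was 0.37 for Irf1 with a standard error of 0.22 (edgeR adjusted p = 0.614) and -0.23 for Irf5 with 0.38 (edgeR adjusted p = 0.893).

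For 2X PBS against 1X PBS, which compares the schedules without cytokine, 0 members and 0% of genes passed in the fits of 12 and of 6 libraries. Irf1 was lower without overlap, as 11.4% of genes had none in either direction, at 101 ± 13 CPM in 2X PBS and 128 ± 8.94 CPM in 1X PBS (n = 3 each, SD), with a log2 difference of -0.34 (standard error 0.21, edgeR adjusted p = 0.787). Irf9 went the other way, at 49.6 ± 4.56 CPM in 2X PBS and 36.9 ± 7.91 CPM in 1X PBS, with an edgeR adjusted p of 0.776 and overlapping libraries. Without the pair of replicate 1 libraries, Irf5 and Irf8 passed, lower in 2X PBS, at log2 differences of -1.14 and -0.87 and edgeR adjusted p-values of 0.00575 and 0.0345, where 18.6% of genes passed. In the same fit 6 of 11 monocyte and macrophage, 6 of 8 neutrophil and 5 of 20 microglia markers passed as lower in 2X PBS, with median log2 differences of -1.56, -1.96 and -0.56 over each list, and 1 microglia marker passed as higher. All 12 astrocyte markers passed as higher in 2X PBS, with a median log2 difference of 1.42. Their part in the values of Irf5 and Irf8 was not tested.

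The difference between both cytokine responses, 2X minus 1X, was tested as an interaction in the fit of 12 libraries, and 0 members and 0% of genes passed. The smallest unadjusted p-values were those of Irf9 at 0.0237 and Irf1 at 0.0361, where 754 of 14490 genes were under 0.05. On the log2 scale the 2X response exceeded the 1X response by 0.71 for Irf1 with a standard error of 0.30, and was lower by a difference of -0.73 with a standard error of 0.28 for Irf9. Their edgeR adjusted p-values were 0.939 and 0.908. Without the pair of replicate 1 libraries the difference was -0.38 for Irf9 with a standard error of 0.22 (unadjusted p 0.116, edgeR adjusted p 0.347) and 0.74 for Irf1 with 0.30 (unadjusted p 0.0294, edgeR adjusted p 0.158). In that fit 0 members passed, where 9.33% of genes did, and 3473 of 14848 genes had an unadjusted p under 0.05. Non-overlap of Irf1 and Irf9 after 2 injections, and overlap after 1, is therefore not shown to be a difference between schedules.

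By group means the members ran in different orders. Irf1 was highest in 2X cytokine and lowest in 2X PBS, whose libraries lay apart from 1X PBS, its neighbour in that order. Irf9 was highest in 2X PBS and lowest in 2X cytokine. Irf5, Irf7 and Irf8 were highest in 1X PBS and second in 2X PBS. Apart from the step from 1X PBS to 2X PBS for Irf1, no neighbours in these orders lay apart.

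The genes most alike in pattern were found for each member by Pearson's r of log2(CPM + 0.5) over 12 libraries, among 11774 coding genes. These libraries fall into sets of unlike Lcn2 level, and r describes those sets as well as single libraries. Irf5 was most like Nckap1l (r of 0.986), Bcl2a1b (0.986) and Cd300a (0.983). Irf7 was most like C5ar1, the receptor of complement fragment C5a (0.979), Alox5, the leukotriene enzyme gene (0.979) and Nfam1 (0.977). Irf9 was most like Il18bp (0.944), C4b (0.943) and Gfap, the intermediate filament gene of reactive astrocytes (0.941). Irf1 was most like Gcc1 (0.892), Csrp1 (0.884) and Rcan2 (0.878), and Irf8 most like Mlxip (0.904), Vgll3 (0.876) and Cd83 (0.874). For Irf2 the highest values were those of Clcn5 (0.873), Bicc1 (0.866) and Dlc1 (0.862), and for Irf3 those of Sft2d1 (0.883), Tor2a (0.869) and Gpr19 (0.865). Gfap, beside which Irf9 stood, had 150, 119 and 113 CPM in 2X cytokine, 1141, 1043 and 1095 CPM in 2X PBS, 725, 234 and 153 CPM in 1X cytokine, and 189, 702 and 585 CPM in 1X PBS.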

How the data were processed

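RNA-seq was analysed for 12 libraries; the 19 ATAC-seq samples were not analysed here, and 10 of them have no group because title and treatment label contradict each other. Per the labels' protocols, SMART-Seq2 libraries were quantified against the GRCm38 transcriptome with kallisto 0.46.1. Use of strand is not stated. Estimated counts were deposited unscaled. TPM values were scaled by the authors to the same total in every library. Estimated counts were summed per gene and rounded; standard errors are the log2 fold change over the root of F. edgeR 4.0.16 (R 4.3.3) tested 14490 genes after filterByExpr and TMM scaling, with 1 coefficient per group. CPM uses TMM-scaled library sizes. Gene positions are from GENCODE M21 and promoters from RefSeq. Members, lists and the pair of libraries left out were chosen with earlier results of these data known. Named genes are the members, up to 4 genes per list with the smallest p, Stat2, Stat3, Spi1 and Nlrc5, abundant markers and the 3 most alike genes; Tbk1, Traf6, Galnt2l, Rsad2, Socs1, Tmem119, P2ry12 and the markers at 0 were named after their values were seen, and 1 gene of this rule is not reported here. As alternatives the fit was repeated with DESeq2 1.42.0, with RLE scaling, without the filter, limma-trend on log2(TPM + 1), limma 3.58.1 voom with quality weights, a replicate block and omitted libraries. Floors cover counting error only. The edgeR code was run on simulated counts with known changes, and only the median estimated fold change was checked. No library was simulated as standing apart from its group.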

Additional observations from a re-analysis of the deposited data

How the results depend on the processing

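The number of members past an adjusted p of 0.05 depended on the fit. For 2X cytokine against 2X PBS it was 3 in the fit of 6 libraries, 1 with DESeq2 (Irf1), 2 without the low count filter and 2 with voom quality weights (Irf1 and Irf9 in both), 4 without replicate 1 of both 1X groups, and 0 to 0 on leaving out 1 library. The matching counts over all genes were 1065, 114, 460, 454 and 1042, with 0 to 125 on leaving out 1 library. For 1X cytokine against 1X PBS, voom and the fit without the pair gave 3 members each (Irf5, Irf7 and Irf8), and leaving out 1 library gave 0 to 2. Over all genes DESeq2 called 2, no filter 251, limma-trend on TPM 6, voom 1778 and the fit without the pair 3489, with 0 to 1141 on leaving out 1 library. For 2X PBS against 1X PBS, voom and the fit without the pair gave 2 members each (Irf5 and Irf8). Over all genes DESeq2 called 17, no filter 97, limma-trend 1, voom 2699 and the fit without the pair 2759, with 0 to 1116 on leaving out 1 library. For 2X cytokine against 1X cytokine 0 members were called in every alternative run, and over all genes the fit of 6 gave 0, DESeq2 8, no filter 193, voom 1 and leaving out 1 library 0 to 3. For the difference of responses 0 members were called in every alternative run, with 13, 70, 1, 199 and 1386 genes by DESeq2, no filter, limma-trend, voom and the fit without the pair, and 0 to 17 on leaving out 1 library. The highest of these ranges came without 1X PBS replicate 1, except for 2X cytokine against 1X cytokine. With the replicate block 0 members were called in any comparison, and 2 genes for 2X cytokine against 2X PBS and 0 for the others; of 18 same-numbered pairs of libraries 2 had deviations correlated above 0.1 (range -0.619 to 0.162), so the numbers were not taken to pair libraries. Directions changed for small differences. With limma-trend on log2(TPM + 1) they were 0.157 (Irf3) and 0.0633 (Irf8) for 2X cytokine against 2X PBS, 0.297 (Irf3) and 0.149 (Irf9) for 1X cytokine against 1X PBS, 0.208 (Irf2) for 2X against 1X cytokine and 0.226 (Irf7) for 2X against 1X PBS. Irf3 in 1X cytokine against 1X PBS was 0.00789 in the fit of 6, 0.00353 with DESeq2, 0.0044 with RLE scaling, 0.0755 with voom and 0.147 without the pair, and Irf9 was 0.00181 with DESeq2. Irf8 in 2X against 1X cytokine was -0.0615 without the pair. In the difference of responses Irf5 was 0.0056, 0.671 and 0.907 with DESeq2, with voom and without the pair, and Irf7 0.192 and 0.414 in the last 2 of these. On leaving out 1 library the log2 difference for 1X cytokine against 1X PBS ran from -0.0347 to 0.397 for Irf1, -0.116 to 0.0932 for Irf3 and -0.239 to 0.176 for Irf9. For 2X against 1X cytokine it ran from -0.154 to 0.104 for Irf2 and -0.0421 to 0.848 for Irf8, and for 2X against 1X PBS from -0.542 to 0.0963 for Irf7. For the difference of responses it ran from -0.157 to 0.036 for Irf3, -0.351 to 0.495 for Irf5 and -0.648 to 0.089 for Irf7. The cause of these changes was not tested. For Irf1, Irf9, Irf7 and Irf5 in 2X cytokine against 2X PBS the direction was the same in all 20 alternatives. Irf5, Irf7 and Irf8 rest on as few as 14, 17 and 13 counts in a library, which limits the differences that could be detected.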
